A study of Homo sapiens with 30 samples.

Results

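The heat shock factors HSF1, HSF2 and HSF4 and the heat shock factor binding protein HSBP1 were followed in all 30 messenger RNA libraries of a study of 3 human cancer cell lines. They are 4 of the 30373 genes in the deposited table and were chosen by name, as the rows of these genes across all 10 groups. Every group received either ML-792 at 500 nM, which the labels also call ML00754792 and which inhibits the enzyme that activates SUMO, or its vehicle DMSO at 0.01%. The lines were MDAMB231, from a breast cancer, and COLO205 and HCT116, both from colorectal cancers. In each line cells were held in ML-792 or in DMSO for 16 h. In HCT116 further cells were held in ML-792 or in DMSO for 3.5 h, with or without a heat shock. For the heat shock, 2 h in either agent came before 0.5 h at 43 °C and 1 h of recovery at 37 °C. Every group held 3 libraries, which the labels call biological triplicates. No untreated cells and no second heat shocked line are part of these groups.

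Heat shock factors are transcription factors that bind arrays of short inverted GAA units, called heat shock elements, upstream of chaperone genes. HSF1 is held inactive by chaperones in resting cells and forms DNA-binding trimers when proteins unfold, so its activity is set mainly by the protein and not by its transcript. HSF2 is a shorter-lived relative that forms mixed trimers with HSF1, and HSF4 is best known from the lens. HSBP1 is a small coiled-coil protein that binds the trimerization domain of HSF1 and restrains it. HSF1, HSF2 and HSF4 proteins can all carry SUMO, the modifier whose attachment ML-792 blocks. Only transcript levels were measured here.

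The values were FPKM (fragments scaled to the length of the transcript and to the size of the library), so levels of different genes are compared per length. Among 10 epithelial and colorectal markers, 3 averaged at least 1 FPKM in MDAMB231, 8 in COLO205 and 5 in HCT116, with DMSO for 16 h. Among 8 mesenchymal markers 7 did in MDAMB231, 2 in COLO205 and 6 in HCT116. Summed FPKM of the mesenchymal markers was 1681 to 1767 in MDAMB231, 95.7 to 100.2 in COLO205 and 190.1 to 197.9 in HCT116. That of the epithelial and colorectal markers was 814.7 to 866.2 in MDAMB231, 3751 to 3971 in COLO205 and 1360 to 1542 in HCT116. FPKM summed to between 461422 and 732251 per library and was highest after heat shock. Depth estimated from the steps of low values was 27.4 to 36.1 M (mega) fragments at 16 h and 9.03 to 74.8 M at 3.5 h, where the estimate is ambiguous for some libraries. Replicate 2 of heat shocked cells in ML-792 stood apart, with the lowest depth estimate, the highest summed FPKM and the largest median log2 deviation from its group, 0.138. Depth estimates in that group were 18.7, 9.03 and 51.1 M, against 54.8, 52.9 and 51.1 M in heat shocked DMSO cells. An estimated 169 HSF2 and 48.0 HSF4 fragments lie behind its values. More on this library is set out beside the heat shock results. Fewer cells of a kind and less RNA per cell cannot be told apart in bulk libraries.

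The sequences that carry the heat shock element are shown first, from genes among the 9 target genes described below that hold it. Sequences and coordinates are from RefSeq on GRCh38.p14, read 5′ to 3′ on the gene's strand. Capitals mark the GAA and TTC units of the element in the lines directly below, and every GAA and TTC in the longer stretches further on. HSPA6 encodes a strictly inducible HSP70, HSPA8 the constitutive HSP70, HSP90AA1 the inducible HSP90, and SERPINH1 a collagen chaperone of the endoplasmic reticulum. The lines give the 23 bases around the element at chr1:161524461-161524483 (plus strand), chr11:123062174-123062196 (minus strand), chr14:102087115-102087137 (minus strand) and chr11:75562172-75562194 (plus strand), in that order of genes.
HSPA6: aaaggTTCgcGAAagTTCgcggc
HSPA8: gccccTTCtgGAAggTTCtaaga
HSP90AA1: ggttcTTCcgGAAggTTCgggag
SERPINH1: caactTTCcaGAAgtTTCtcggg

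The element searched was GAANNTTCNNGAA or its reverse complement TTCNNGAANNTTC, on both strands, in windows of 250 bases before to 50 bases after each annotated start. It was in 0.49% of 35116 windows. Of the 35 listed target genes of heat shock factors, 32 had a window and 9 of these held it. HSF2, HSF4 and HSBP1 had 5 windows in all, and 0 held it. The shorter pairs GAANNTTC and TTCNNGAA, which lie within the longer element, were in 6.77% and 7.74% of all windows and also in 0 of these 5. At such shares 0 of 5 windows is a common outcome for any genes, so it does not set these 3 genes apart. Most of the listed target genes with a window also lacked the longer element. The upstream stretches of the 3 genes, cut at the annotated gene start, show scattered single units: 9 in the 245 bases of HSF2, 1 in the 110 bases of HSF4 and 3 in the 115 bases of HSBP1. They lie on the plus strand at chr6:122399301-122399545, chr16:67164571-67164680 and chr16:83807728-83807842. The HSF4 stretch begins where FBXL8, the gene before it, ends in the GENCODE annotation. No window of HSF1 was used.
HSF2: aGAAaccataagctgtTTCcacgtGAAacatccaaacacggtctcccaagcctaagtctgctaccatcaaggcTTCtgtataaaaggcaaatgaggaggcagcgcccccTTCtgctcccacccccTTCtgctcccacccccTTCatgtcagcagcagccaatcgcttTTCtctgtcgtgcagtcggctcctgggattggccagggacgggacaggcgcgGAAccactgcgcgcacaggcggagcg
HSF4: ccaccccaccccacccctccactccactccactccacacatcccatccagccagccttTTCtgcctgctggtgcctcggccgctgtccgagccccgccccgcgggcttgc
HSBP1: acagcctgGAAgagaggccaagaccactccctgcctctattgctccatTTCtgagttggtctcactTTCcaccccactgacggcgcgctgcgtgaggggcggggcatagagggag

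HSBP1 was the most abundant of the 4 transcripts and HSF4 the scarcest in most libraries. HSBP1 ranged over the 30 libraries between 37.6 and 161.9 FPKM, HSF1 between 34.7 and 55.8 FPKM, HSF2 between 2.69 and 16.2 FPKM and HSF4 between 0.732 and 5.15 FPKM. By mean level they ranked at positions 785, 1932, 6547 and 10481 of the table. The order HSBP1, HSF1, HSF2, HSF4 from high to low held in 20 libraries. In the 6 COLO205 libraries HSF4 stood above HSF2, and in 4 MDAMB231 libraries HSF1 stood above HSBP1. HSF1 varied least, 1.61-fold between its extreme libraries, against 4.31-fold for HSBP1, 6.02-fold for HSF2 and 7.03-fold for HSF4.

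**Figure D1:**
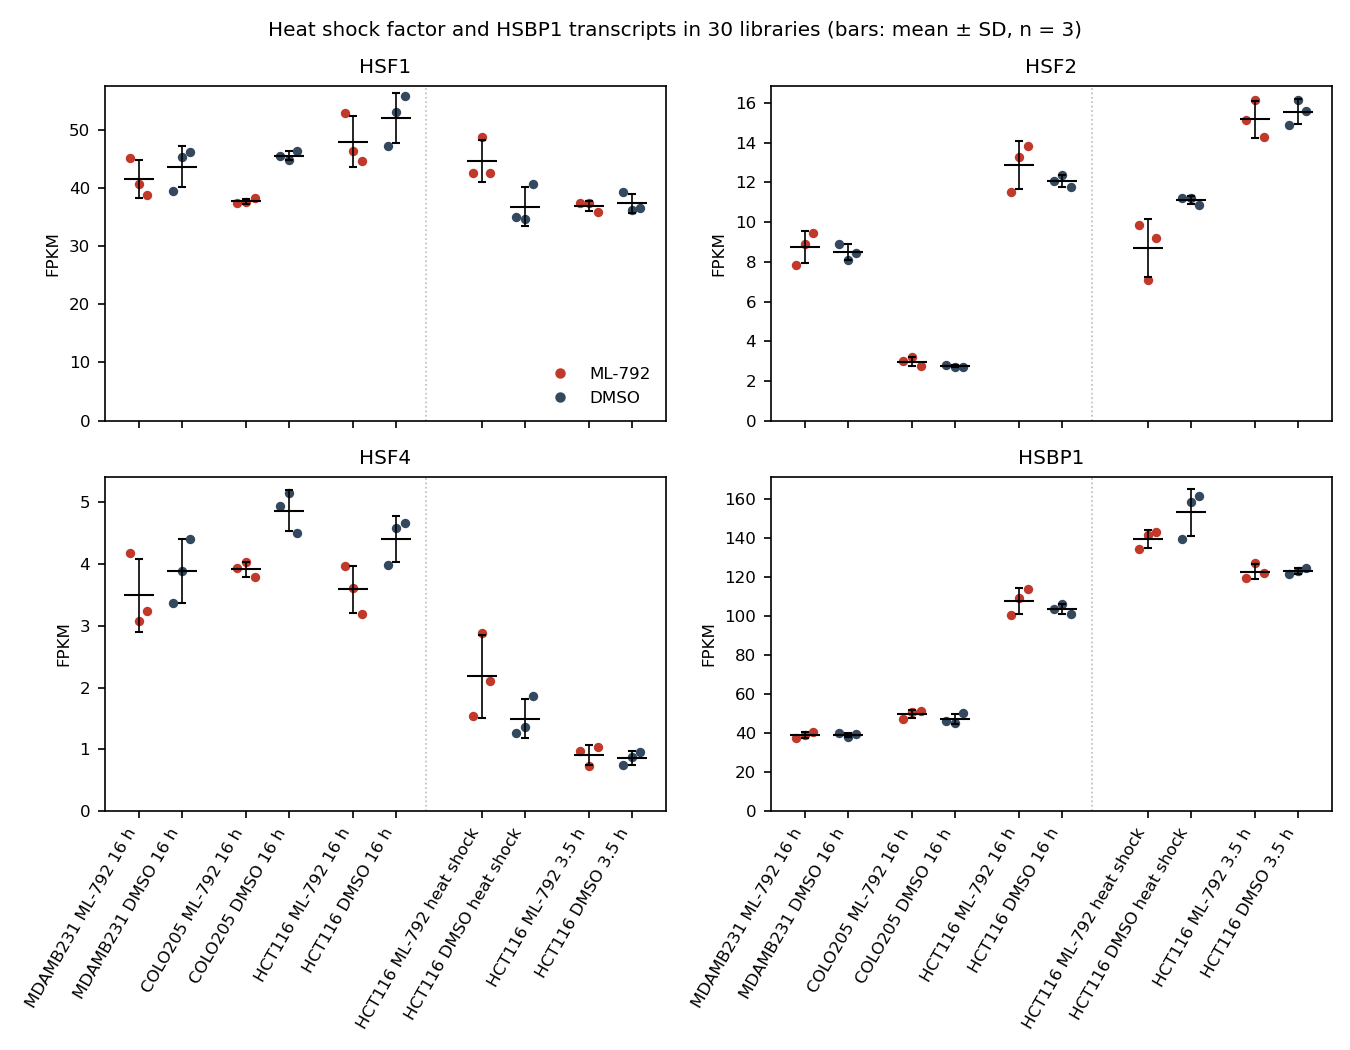
FPKM (vertical axes, from 0) of HSF1, HSF2, HSF4 and HSBP1 in each library of the 10 groups; points are libraries, bars the mean ± SD of 3. HSF2 is lowest in COLO205, HSBP1 is higher in HCT116 than in the other lines, and HSF4 is lowest in the 3.5 h HCT116 libraries without heat shock.

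HSF2 was lower after heat shock in HCT116, both in ML-792 and in DMSO. The library numbers in the sample titles form separate runs for heat shocked libraries and for those without heat shock. FPKM summed to 608121 to 732251 in the former and to 552951 to 575982 in the latter. Heat shock and a possible difference between library series therefore cannot be told apart, here and in all heat shock results below. In ML-792, HSF2 had 9.88, 7.08 and 9.19 FPKM after heat shock, against 15.2, 16.2 and 14.3 FPKM without it. In DMSO, HSF2 had 11.2, 11.2 and 10.9 FPKM after heat shock, against 14.9, 16.2 and 15.6 FPKM without it. In both agents every heat shocked library lay below every library without heat shock. The share of all genes whose groups do not overlap was not counted. Statements on overlap, here and below, therefore only describe the libraries. The log2 change on the FPKM + 1 scale, used for every fold change given here, was -0.75 ± 0.09 in ML-792 (SE, adjusted p = 2.14e-05) and -0.45 ± 0.09 in DMSO (adjusted p = 0.00133). These and all adjusted p values are from limma with Benjamini-Hochberg adjustment over all genes tested, and a gene was called below 0.05. Both calls held in every alternative run, including all that leave out 1 library, with values between -1.04 and -0.62 in ML-792 and between -0.71 and -0.43 in DMSO.

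Calls were common in these comparisons. Of 12191 genes tested, 61.7% were called in ML-792 and 49.5% in DMSO, with 39.3% called higher and 22.3% lower in ML-792, and 28.9% higher and 20.6% lower in DMSO. All 4 members were called in ML-792 and 3 in DMSO, HSF4 among them through a filter it passes because of the heat shocked libraries. The median log2 change of all genes was 0.103 in ML-792 and 0.051 in DMSO with FPKM as deposited. It was -0.0304 and -0.0244 after median-of-ratios scaling, and -0.182 and -0.19 after scaling to equal totals. Of the calls in ML-792 63.8% were higher as deposited, 42.7% after median-of-ratios scaling and 21.0% at equal totals. In DMSO these shares were 58.4%, 43.5% and 18.7%. Small changes with heat shock below should be read beside these shifts.

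HSBP1 had 134.5, 141.6 and 143.0 FPKM in heat shocked cells in ML-792, against 119.5, 127.2 and 122.1 FPKM without heat shock. In DMSO it had 139.6, 158.4 and 161.9 FPKM after heat shock, against 121.8, 123.2 and 124.7 FPKM without it. The groups did not overlap in either agent. As deposited, HSBP1 was higher after heat shock by a log2 change of 0.18 ± 0.06 in ML-792 (adjusted p = 0.0201) and of 0.31 ± 0.06 in DMSO (adjusted p = 0.00116). After median-of-ratios scaling the change was 0.03 in ML-792 (adjusted p = 0.632) and 0.22 in DMSO (adjusted p = 0.00457). At equal totals it was called lower in ML-792 at -0.14 (adjusted p = 0.0153) and was 0.04 in DMSO (adjusted p = 0.484). The ML-792 call was also lost with the GC trend removed, at 0.13 (adjusted p = 0.0533), and without replicate 1 (0.16, adjusted p = 0.0755) or replicate 3 (0.18, adjusted p = 0.0585) of the ML-792 cells that had no heat shock.

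HSF1 did not change with heat shock in DMSO past the threshold. It had 35.02, 34.7 and 40.7 FPKM after heat shock in DMSO, against 39.2, 36.3 and 36.5 FPKM without it, and the groups overlapped. The log2 change was -0.02 ± 0.07, with a 95% interval between -0.18 and 0.13 (adjusted p = 0.802). At equal totals it was called lower at -0.29 (adjusted p = 0.000581). In ML-792, HSF1 had 42.6, 48.8 and 42.6 FPKM after heat shock, against 37.4, 37.5 and 35.9 FPKM without it, and the groups did not overlap. This change of 0.26 ± 0.07 (adjusted p = 0.00663) was 0.12 after median-of-ratios scaling (adjusted p = 0.128) and -0.06 at equal totals (adjusted p = 0.385). Neither the call nor its direction held across these scalings.

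HSF4 rose with heat shock from a level near the detection filter. It had 1.54, 2.89 and 2.11 FPKM after heat shock in ML-792, against 0.971, 0.732 and 1.04 FPKM without it. In DMSO it had 1.27, 1.37 and 1.86 FPKM after heat shock, against 0.740, 0.877 and 0.959 FPKM without it. The groups did not overlap in either agent. The log2 change was 0.71 ± 0.14 in ML-792 (adjusted p = 0.000642) and 0.42 ± 0.14 in DMSO (adjusted p = 0.0208). With a pseudocount of 0.1 in place of 1 it was 1.14 in ML-792 and 0.73 in DMSO, both called. In ML-792 it was 0.62 after median-of-ratios scaling and 0.52 at equal totals, both called. The DMSO call was lost at equal totals, at 0.28 (adjusted p = 0.0605), and without replicate 3 of the heat shocked DMSO cells, at 0.32 (adjusted p = 0.0865), or replicate 1 of the DMSO cells without heat shock, at 0.37 (adjusted p = 0.0743). HSF4 reached 1 FPKM in all 6 heat shocked libraries and in 1 of the 6 without heat shock, so it entered the test through the group in which it is high. An estimated 45.1 to 198 fragments per 3.5 h library lie behind these values.

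HSF4 follows FBXL8, an F-box gene on the same strand. The 2 genes overlap in the RefSeq annotation and do not in GENCODE, and which annotation was used for the counting is not stated, so fragments from an overlap could have been assigned to either. FBXL8 averaged 0.793 ± 0.126 FPKM after heat shock in ML-792 and 0.479 ± 0.103 FPKM without it (SD, n = 3 each). In DMSO it averaged 0.471 ± 0.0858 FPKM after heat shock and 0.306 ± 0.0032 FPKM without it. In the 16 h libraries of HCT116 both genes were higher, HSF4 at 3.59 ± 0.38 FPKM in ML-792 and 4.41 ± 0.37 FPKM in DMSO, and FBXL8 at 2.01 ± 0.65 FPKM in ML-792 and 2.46 ± 0.52 FPKM in DMSO. The library numbers of the 16 h and 3.5 h libraries also form separate runs. The labels do not say whether they come from the same experiment, so time and library series cannot be told apart. HSF1 and DGAT1, the gene after it, also overlap in the RefSeq annotation. With the strand setting of the counting not stated, fragments there could have been assigned to either as well.

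**Figure D2:**
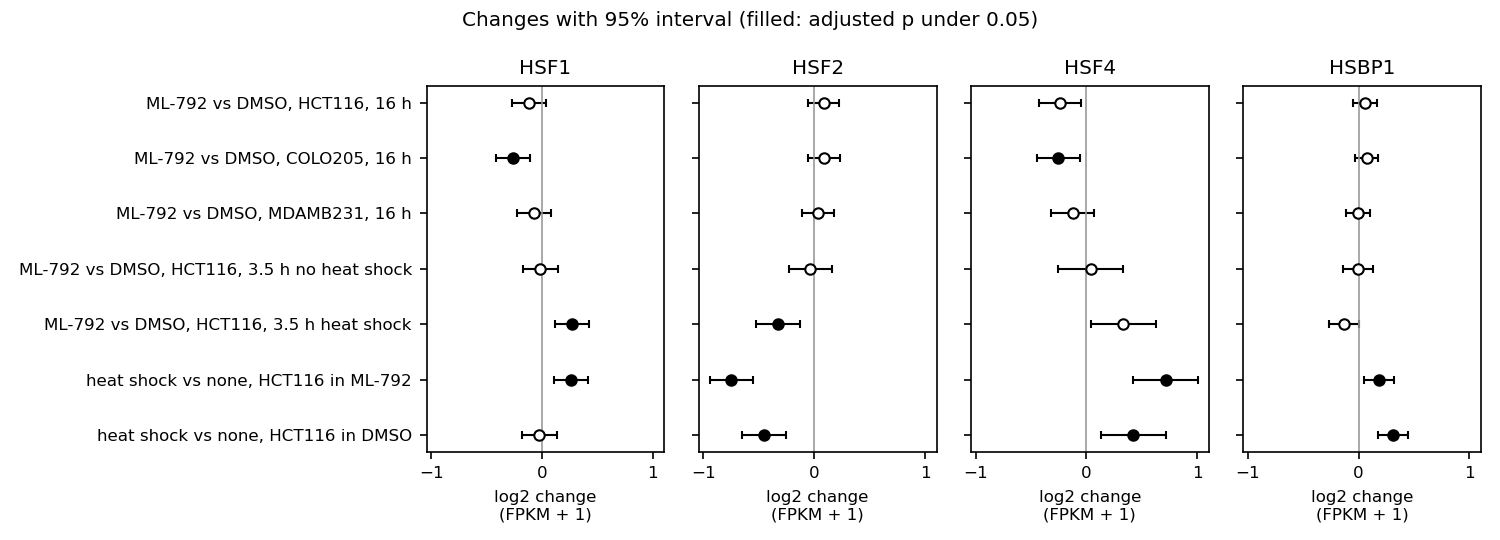
Log2 change (horizontal axes, FPKM + 1 scale) of each gene in 7 comparisons, ML-792 over DMSO and heat shock over none; points are limma estimates, bars 95% intervals, filled points have an adjusted p under 0.05. HSF2 is called lower with heat shock in both agents, at -0.75 and -0.45, and ML-792 without heat shock gave values between -0.26 and 0.09.

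After heat shock, HSF1 was higher and HSF2 lower in ML-792 than in DMSO as the FPKM were deposited, and both calls depended on the processing. Heat shocked cells in ML-792 had more HSF1 than heat shocked cells in DMSO (44.6 ± 3.59 against 36.8 ± 3.34 FPKM, SD, n = 3 each), a log2 change of 0.27 ± 0.07 (adjusted p = 0.0146). HSF2 was lower, at 8.72 ± 1.46 against 11.1 ± 0.20 FPKM, a change of -0.33 ± 0.09 (adjusted p = 0.0187). The groups did not overlap for either gene. These are 2 of 4 members called, where 33.5% of genes were called, 18.4% higher and 15.1% lower. Of those calls 54.9% were higher as deposited, 31.9% after median-of-ratios scaling and 35.6% at equal totals. With only the 6 heat shocked libraries fitted, HSF1 had an adjusted p of 0.103 and HSF2 of 0.101. The HSF1 call was lost without replicate 2 in DMSO (0.23, adjusted p = 0.0703) or in ML-792 (0.21, adjusted p = 0.0515), and the HSF2 call without replicate 2 in DMSO (-0.32, adjusted p = 0.0645). Without replicate 2 in ML-792 the HSF2 difference was -0.20 and stayed called (adjusted p = 0.0392). HSF4 averaged 2.18 ± 0.68 FPKM in ML-792 and 1.498 ± 0.32 FPKM in DMSO, a change of 0.33 (adjusted p = 0.073), and was called without replicate 1 in ML-792 (0.48, adjusted p = 0.0148) or replicate 3 in DMSO (0.43, adjusted p = 0.0302). HSBP1 averaged 139.7 FPKM in ML-792 and 153.3 FPKM in DMSO, a change of -0.13 (adjusted p = 0.113). It was called lower at -0.20 under both other scalings and without replicate 1 in DMSO.

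The GC content of the transcripts moved with these values. The GC tilt of a library, the mean log2 deviation of genes above the 75th percentile of GC minus that of genes below the 25th, was 0.215, 0.558 and 0.184 in the heat shocked ML-792 libraries. It was -0.115, -0.173 and 0.0794 in the heat shocked DMSO libraries and between -0.16 and -0.0673 in the 6 libraries without heat shock. The HSF1 transcript has 64.7% GC, more than 96% of the genes tested, and that of HSF4 62.5%. HSF2 has 40.5% and HSBP1 44.5%. Replicate 2 of the heat shocked ML-792 cells, with the highest tilt, had the highest HSF1 and HSF4 and the lowest HSF2 of its group. Without it the heat shock changes in ML-792 were 0.20 for HSF1 (adjusted p = 0.0254), -0.62 for HSF2 (adjusted p = 5.64e-06), 0.56 for HSF4 (adjusted p = 0.00169) and 0.17 for HSBP1 (adjusted p = 0.0454). With each library's GC trend removed, the HSF1 difference between heat shocked ML-792 and DMSO cells was 0.03 (adjusted p = 0.653) and that of HSF2 -0.19 (adjusted p = 0.0713), and HSF4 was at 0.11 (adjusted p = 0.507). The heat shock change of HSF1 in ML-792 was then -0.01 (adjusted p = 0.768). HSF2 was still called lower after heat shock, at -0.62 in ML-792 (adjusted p = 5.1e-06) and -0.48 in DMSO (adjusted p = 5.41e-05). HSF4 was at 0.47 in ML-792 (adjusted p = 0.00146) and 0.42 in DMSO (adjusted p = 0.00331). Both HSF4 values were called higher, but HSF4 had entered the test through the heat shocked libraries, in which it is high. What gave the libraries their tilt was not tested.

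**Figure D3:**
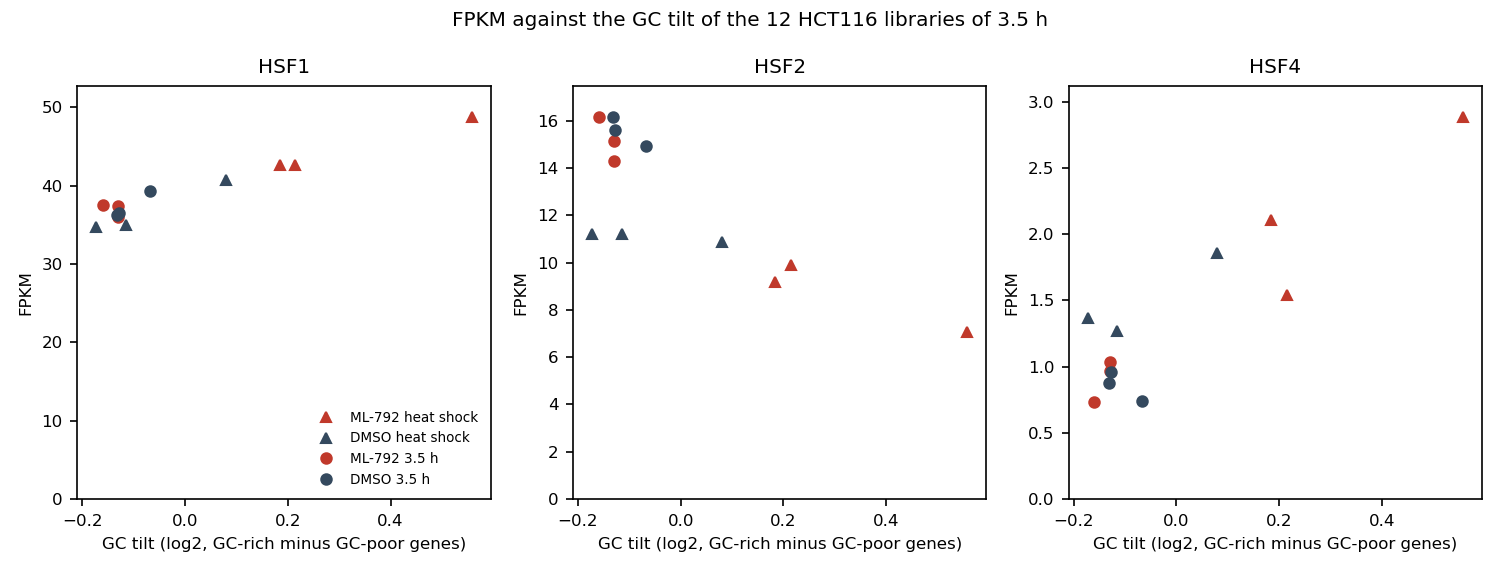
FPKM (vertical axes, from 0) of HSF1, HSF2 and HSF4 against the GC tilt (horizontal axes, log2) in the 12 HCT116 libraries of 3.5 h; triangles are heat shocked, circles not, red ML-792, dark DMSO. The heat shocked ML-792 libraries lie at tilts of 0.184 to 0.558, to the right of the other 9.

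Whether the heat shock change itself differed between ML-792 and DMSO was tested as an interaction. No member passed, where 6.41% of genes were called, 38.7% of them higher as deposited, 18.9% after median-of-ratios scaling and 15% at equal totals. The difference of the log2 changes, ML-792 minus DMSO, was 0.29 for HSF1 (95% interval 0.07 to 0.51, adjusted p = 0.0876), -0.29 for HSF2 (-0.57 to -0.01, adjusted p = 0.146), 0.29 for HSF4 (-0.12 to 0.71, adjusted p = 0.305) and -0.13 for HSBP1 (-0.31 to 0.06, adjusted p = 0.326). Without replicate 3 of the heat shocked DMSO cells the HSF1 difference was called, at 0.36 (adjusted p = 0.0316). With the GC trend removed the differences were 0.0212 for HSF1 (adjusted p = 0.875), -0.14 for HSF2 (adjusted p = 0.474) and 0.0493 for HSF4 (adjusted p = 0.89).

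The balance of HSF2 to HSF1 within a library needs no scaling between libraries, though it carries the GC tilt. The ratio of HSF2 to HSF1 FPKM was 0.232, 0.145 and 0.216 after heat shock in ML-792, against 0.405, 0.431 and 0.397 without it. In DMSO it was 0.321, 0.323 and 0.267 after heat shock, against 0.380, 0.446 and 0.427 without it. Heat shocked libraries lay below the others in both agents. The exact two-sided permutation test gave p = 0.1 in each, which is the smallest that 3 libraries against 3 allow, and 0.167 after adjustment over 10 comparisons.

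**Figure D4:**
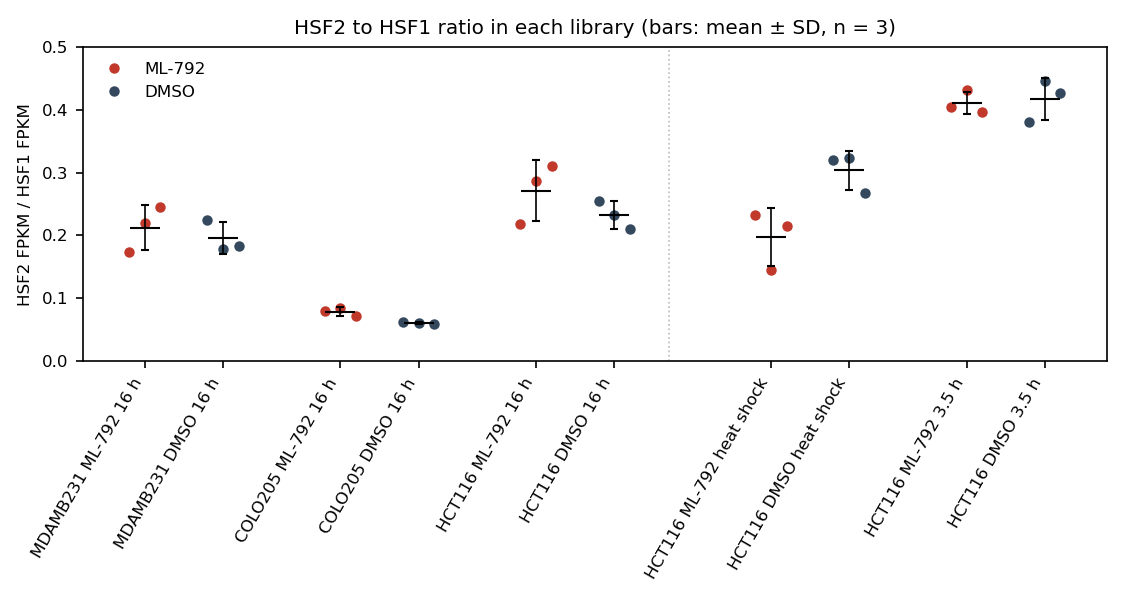
Ratio of HSF2 to HSF1 FPKM (vertical axis, from 0) in each library of the 10 groups; points are libraries, bars the mean ± SD of 3. COLO205 has the lowest ratios, 0.0789 in ML-792 and 0.0601 in DMSO, and HCT116 without heat shock at 3.5 h the highest, 0.411 and 0.418.

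The listed target genes of the factors rose with heat shock. Of 35 listed chaperone and stress genes known as heat shock factor targets, 34 were called higher and 0 lower after heat shock in ML-792, and 35 were called higher in DMSO. The list was chosen with earlier results of these data known. These counts therefore describe the listed genes and do not measure how often targets of the factors rise. Their median log2 change was 1.64 in ML-792 and 2.01 in DMSO, beside 0.103 and 0.051 for all genes. Among them 3 genes, HSPA6, HSPA1L and CRYAB, reached 1 FPKM in fewer than 3 libraries without heat shock, so they were tested because heat shock raised them. HSPA6 averaged 129.6 ± 19.2 FPKM after heat shock in ML-792 against 0.0167 ± 0.0054 FPKM without it, a log2 change of 6.995 (adjusted p = 1.87e-13). In DMSO it averaged 64.5 ± 11.1 FPKM against 0.00849 ± 0.015 FPKM, a change of 6.01 (adjusted p = 8.37e-13). The other largest rises were those of HSPA1A, 5.79 in ML-792 and 4.90 in DMSO, HSPA1B, 4.93 and 4.57, and ZFAND2A, a stress-induced regulator of the proteasome, 4.36 and 4.66. HSPA1A and HSPA1B, inducible HSP70 genes, are near-identical, so the split of fragments between them is uncertain, here and in all their values below.

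**Figure D5:**
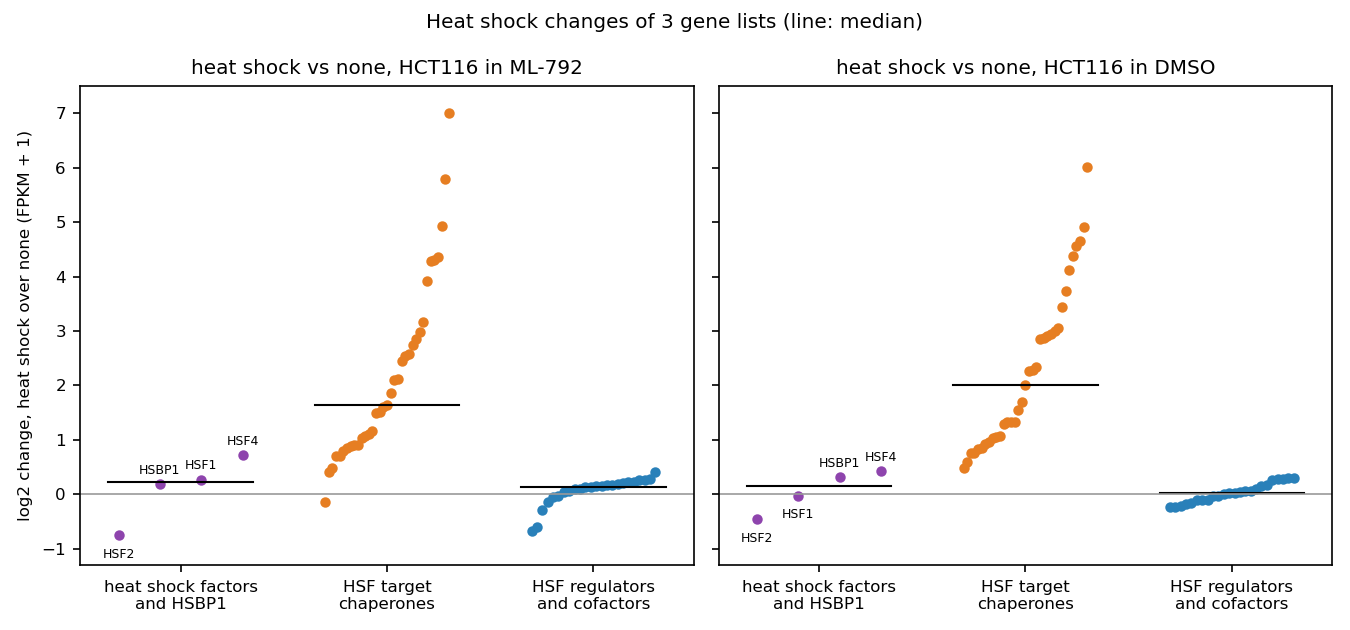
Log2 change with heat shock over none (vertical axis, FPKM + 1 scale) for the 4 named genes and 2 gene lists, in ML-792 (left) and DMSO (right); points are genes, lines medians. Target genes have medians of 1.64 and 2.01, while the factors lie between -0.75 and 0.71.

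For genes that modify or assist the factors, the direction of calls turned with the scaling, as it did over all genes. Of 25 listed regulators and cofactors 24 were tested, and as deposited 10 (41.7%) were called higher and 4 (16.7%) lower after heat shock in ML-792, where 39.3% and 22.3% of all genes were. In DMSO 6 (25%) were called higher and 3 (12.5%) lower, where 28.9% and 20.6% of all genes were. After median-of-ratios scaling 1 was higher and 6 lower in ML-792, and 4 higher and 6 lower in DMSO. At equal totals 15 were lower in ML-792 and 15 in DMSO. Of the calls over all genes in ML-792, 63.8% were higher as deposited, 42.7% after median-of-ratios scaling and 21% at equal totals. In DMSO these shares were 58.4%, 43.5% and 18.7%. The turn is therefore not particular to the listed genes. The values that follow are as deposited. In ML-792 the lowest were XPO1, a nuclear export receptor, at -0.68 (adjusted p = 0.00026), and SIRT1, the deacetylase that prolongs HSF1 binding to DNA, at -0.59 (adjusted p = 0.000242). NEDD4, a ubiquitin ligase, was at -0.30 in ML-792 and -0.23 in DMSO, and WDR5, a subunit of histone methyltransferase complexes, at -0.15 and -0.22. These 4 genes in ML-792, and NEDD4 and WDR5 in DMSO, were called lower under all 3 scalings. The largest rises in ML-792 were PRKACA, the catalytic subunit of protein kinase A, at 0.41, CREBBP, an acetyltransferase, at 0.28, and the kinases MAPK3 at 0.27 and MAPKAPK2 at 0.26. At equal totals none of these 4 was called in ML-792, PRKACA being at 0.0952 and the others between -0.0533 and -0.0214, and after median-of-ratios scaling PRKACA alone was, at 0.27. DAXX, a chaperone of histone H3.3 that assists HSF1, was at -0.23 in DMSO. It was called lower there under the other scalings too, at -0.32 after median-of-ratios scaling and -0.50 at equal totals. The largest rises in DMSO were the elongation factor EEF1A1 and the kinase GSK3B at 0.30 each, CUL3 at 0.28 and MAPK8 at 0.27. After median-of-ratios scaling EEF1A1 at 0.22, GSK3B at 0.22 and CUL3 at 0.19 were still called higher in DMSO, and MAPK8 at 0.19 was not. At equal totals the 4 rises in DMSO were between 0.0118 and 0.048 and were not called. Of 20 SUMO attachment and removal genes, 6 were called higher and 4 lower in ML-792, and 6 higher and 2 lower in DMSO, shares of 30% and 20% and of 30% and 10%. At equal totals 1 was higher and 14 lower in ML-792, and 1 higher and 10 lower in DMSO, where calls over all genes also turned lower.

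HSBP1L1, a paralog of HSBP1, was the only further family gene that passed the filter on low values. It had 33.3, 35.3 and 34.7 FPKM after heat shock in ML-792, against 17.3, 16.2 and 16.9 FPKM without it. In DMSO it had 29.9, 29.7 and 39.5 FPKM after heat shock, against 18.6, 19.9 and 16.8 FPKM without it. The groups were far apart in both agents, with log2 changes of 0.99 (adjusted p = 2.62e-06) and 0.80 (adjusted p = 2.1e-05). HSF5 stayed at or below 0.019 FPKM and HSFX2 at or below 0.997 FPKM in every library. SERINC1, the gene after HSF2 on its chromosome, was lower after heat shock in ML-792 at -0.21 (adjusted p = 0.0144) and higher in DMSO at 0.22 (adjusted p = 0.0125). The DMSO value was 0.14 after median-of-ratios scaling and -0.0382 at equal totals, neither called.

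At 3.5 h without heat shock no member was called, where 1.21% of genes were. HSF1 averaged 36.9 ± 0.87 FPKM in ML-792 and 37.4 ± 1.65 FPKM in DMSO, and HSF2 15.2 ± 0.94 FPKM in ML-792 and 15.6 ± 0.63 FPKM in DMSO. HSF4 averaged 0.913 ± 0.16 FPKM in ML-792 and 0.859 ± 0.11 FPKM in DMSO, and HSBP1 122.9 ± 3.94 and 123.2 ± 1.47 FPKM. All 4 pairs of groups overlapped. The 95% intervals of the log2 change were -0.17 to 0.14 for HSF1, -0.23 to 0.16 for HSF2, -0.25 to 0.33 for HSF4 and -0.14 to 0.13 for HSBP1. Among target genes 4 of 35 were called higher and 0 lower, and 17 higher with only these 6 libraries fitted, where calls over all genes were 464 higher and 264 lower. The 4 were SERPINH1 at 0.70, RGS2, a regulator of G protein signalling, at 0.64, HSPH1, an HSP110, at 0.51 and DNAJB1, an HSP40, at 0.48. No regulator was called by limma, while of all genes 124 (1.02%) were called higher and 23 (0.189%) lower.

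At 16 h HSF1 and HSF4 were lower in ML-792 in COLO205. HSF1 had 37.5, 37.6 and 38.2 FPKM in ML-792, against 45.5, 44.8 and 46.4 FPKM in DMSO. HSF4 had 3.94, 4.03 and 3.78 FPKM in ML-792, against 4.93, 5.15 and 4.50 FPKM in DMSO. The groups did not overlap for either gene. The log2 changes were -0.26 ± 0.07 for HSF1 (adjusted p = 0.00835) and -0.25 ± 0.09 for HSF4 (adjusted p = 0.0381). These are 2 of 4 members called, both lower, where 37.0% of genes were called and 17.7% were called lower. HSF1 remained called in every alternative run, with changes between -0.28 and -0.18. The HSF4 call was lost with no filter on low values and without any of 5 of its 6 libraries, with changes between -0.30 and -0.22. COLO205 libraries in ML-792 had GC tilts of -0.217 to -0.195, against -0.111 to -0.0536 in DMSO. With the GC trend removed the changes were -0.18 for HSF1 (adjusted p = 0.000179) and -0.18 for HSF4 (adjusted p = 0.0226). HSF2 averaged 2.98 ± 0.24 FPKM in ML-792 and 2.74 ± 0.063 FPKM in DMSO, a difference of 0.09 that missed the threshold (adjusted p = 0.344). HSBP1 averaged 49.8 ± 2.13 FPKM in ML-792 and 47.3 ± 2.55 FPKM in DMSO, a difference of 0.07 (adjusted p = 0.281).

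In HCT116 at 16 h no member was called, where 14.7% of genes were, 56.4% of them higher as deposited, 44.9% after median-of-ratios scaling and 39.2% at equal totals. HSF4 had 3.96, 3.61 and 3.20 FPKM in ML-792, against 3.98, 4.57 and 4.67 FPKM in DMSO. These groups did not overlap, by a margin of 3.96 in ML-792 against 3.98 in DMSO, and the change of -0.24 had an adjusted p of 0.0915. Without replicate 1 in ML-792 it was called, at -0.30 (adjusted p = 0.0476). With the GC trend removed it was -0.14 (adjusted p = 0.114). The GC tilts were 0.201, 0.00575 and -0.0789 in ML-792, against 0.0827, 0.189 and 0.33 in DMSO. HSF1 had 52.9, 46.3 and 44.7 FPKM in ML-792, against 47.3, 53.1 and 55.8 FPKM in DMSO, and the groups overlapped (change -0.12, adjusted p = 0.313; 0.00123 with the GC trend removed). HSF2 averaged 12.9 ± 1.22 FPKM in ML-792 and 12.1 ± 0.30 FPKM in DMSO (0.08, adjusted p = 0.455). HSBP1 averaged 108.0 ± 6.76 FPKM in ML-792 and 103.7 ± 2.58 FPKM in DMSO (0.06, adjusted p = 0.503). In MDAMB231 no member was called either, where 16.9% of genes were. HSF1 averaged 41.6 ± 3.34 FPKM there in ML-792 and 43.7 ± 3.59 FPKM in DMSO (-0.07, adjusted p = 0.602), and HSF2 8.75 ± 0.83 and 8.48 ± 0.40 FPKM (0.04, adjusted p = 0.798). HSF4 averaged 3.49 ± 0.59 FPKM in ML-792 and 3.88 ± 0.52 FPKM in DMSO (-0.12, adjusted p = 0.43), and HSBP1 39.1 ± 1.45 and 39.2 ± 0.98 FPKM (-0.0037, adjusted p = 0.989).

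None of the 4 transcripts was called as responding differently to the drug between lines with FPKM as deposited. In the interaction of line and drug 19.4% of genes were called between COLO205 and HCT116, 10.8% between MDAMB231 and HCT116 and 26.0% between MDAMB231 and COLO205. The HSF1 change was more negative in COLO205 than in HCT116 by -0.15 (95% interval -0.36 to 0.07, adjusted p = 0.355) and stood 0.19 higher in MDAMB231 than in COLO205 (-0.02 to 0.41, adjusted p = 0.18). With the GC trend removed both were called, at -0.18 (adjusted p = 0.00612) and 0.12 (adjusted p = 0.0487). Nor was a member called between the drug effects at 16 h and at 3.5 h in HCT116, where 2.40% of genes were; the difference for HSF4 was -0.28 (adjusted p = 0.239).

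Target genes moved with ML-792 at 16 h in part. In HCT116, 8 of 32 tested were called higher and 1 lower, where 8.32% of all genes were called higher and 6.42% lower. RGS2 was at 1.34, SERPINH1 at 0.70, HSPH1 at 0.47 and the small heat shock protein gene HSPB1 at 0.43, with HSPA1B at -0.34. In COLO205, 11 were called higher and 5 lower, where 19.4% and 17.7% of all genes were. They were led by RGS2 at 1.02, HSPB1 at 0.61, HSPA1B at 0.49 and SERPINH1 at 0.45, with ZFAND2A at -0.36, HSP90AB1, the constitutive HSP90, at -0.22, AHSA1, an activator of HSP90, at -0.19 and CHORDC1, an HSP90 partner, at -0.14. In MDAMB231, 6 were called higher and 2 lower, where 8.38% and 8.48% of all genes were. SERPINH1 was at 0.38, the cochaperone BAG3 at 0.34, HSPB8 at 0.24 and FKBP4 at 0.23, with CHORDC1 at -0.28 and DNAJB6 at -0.16. The list medians were 0.06, 0.02 and 0.03, against 0.00349, 0.00485 and 0 for all genes. Among 24 regulators 2 were called higher in HCT116, PLK1 at 0.26 and XPO1 at 0.21. In COLO205, 6 were called higher, with MAPK3 at 0.34, CUL3 at 0.26, XPO1 at 0.21 and CDC20 at 0.20 the largest, and 2 lower, WDR5 at -0.21 and CSNK2A1 at -0.19. In MDAMB231, 1 was called higher, MAPKAPK2 at 0.14. Among 20 SUMO pathway genes 4 were called higher in HCT116, 5 higher and 2 lower in COLO205, and 2 higher in MDAMB231.

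Between heat shocked cells in ML-792 and in DMSO, 8 of 35 target genes (22.9%) were called higher and 3 (8.57%) lower, where 18.4% and 15.1% of all genes were. After median-of-ratios scaling 6 were higher and 9 lower, and at equal totals 8 were higher and 8 lower. Of the calls over all genes 54.9% were higher as deposited, 31.9% after median-of-ratios scaling and 35.6% at equal totals. HSPA6 was at 1.00 (adjusted p = 0.000393), HSPA1B at 0.52, SERPINH1 at 0.43 and DNAJB1 at 0.39. RGS2 was at -0.84 (adjusted p = 4.05e-05), PTGES3, an HSP90 cochaperone, at -0.65 and HSPA4, an HSP110 relative, at -0.22. Among 24 regulators 5 (20.8%) were called higher, PRKACA at 0.45, SMARCA4 at 0.34, PLK1 at 0.33 and CREBBP at 0.33 the largest, and 3 (12.5%) lower, XPO1 at -0.59, SIRT1 at -0.56 and MAPK8 at -0.28. With only the 6 heat shocked libraries fitted, 1 target gene was called higher and 1 lower.

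The lines themselves differed in HSF2 and HSBP1 without the drug. In DMSO for 16 h, HSF2 had 2.81, 2.69 and 2.72 FPKM in COLO205, against 12.1, 12.4 and 11.8 FPKM in HCT116, a log2 change of -1.81 ± 0.07 (adjusted p = 1.79e-14). In MDAMB231 it had 8.89, 8.09 and 8.46 FPKM, which is -0.46 against HCT116 (adjusted p = 5.17e-06) and 1.34 against COLO205 (adjusted p = 1.31e-12). The 3 lines did not overlap. HSBP1 had 46.4, 45.4 and 50.2 FPKM in COLO205 and 40.0, 38.1 and 39.5 FPKM in MDAMB231, against 103.5, 106.3 and 101.2 FPKM in HCT116. It was at -1.12 in COLO205 (adjusted p = 2.55e-13) and -1.38 in MDAMB231 (adjusted p = 1.21e-14) relative to HCT116, and at -0.27 in MDAMB231 relative to COLO205 (adjusted p = 8.59e-05). Calls between lines were the rule, with 84.9% of genes called between COLO205 and HCT116, 83.6% between MDAMB231 and HCT116 and 86.4% between MDAMB231 and COLO205.

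Differences of HSF1 and HSF4 between the lines were smaller and depended on the processing. In DMSO, HSF1 averaged 45.6 ± 0.83 FPKM in COLO205 and 43.7 ± 3.59 FPKM in MDAMB231, against 52.1 ± 4.34 FPKM in HCT116. It was at -0.19 in COLO205 (adjusted p = 0.0248) and -0.25 in MDAMB231 (adjusted p = 0.00436) relative to HCT116. Both calls were lost after median-of-ratios scaling, that of MDAMB231 also at equal totals, and with the GC trend removed both were called in the opposite direction, at 0.35 and 0.09. That of COLO205 was also lost without replicate 1 or 2 of COLO205 or replicate 2 or 3 of HCT116, with values between -0.18 and -0.13. HSF4 averaged 4.86 ± 0.33 FPKM in COLO205 and 3.88 ± 0.52 FPKM in MDAMB231, against 4.41 ± 0.37 FPKM in HCT116. Its difference of -0.27 between MDAMB231 and COLO205 was called (adjusted p = 0.0113), and the call was lost at equal totals and without replicate 1 of MDAMB231 (-0.19, adjusted p = 0.0763). The difference between MDAMB231 and HCT116 of -0.15 (adjusted p = 0.133) was called without replicate 3 of MDAMB231, at -0.23 (adjusted p = 0.0394). With the GC trend removed HSF4 was called higher in COLO205 than in HCT116, at 0.51 (adjusted p = 1.42e-07) against 0.12 as deposited, and lower in MDAMB231 than in COLO205 at -0.42 (adjusted p = 2.25e-06). HSF1 was then called lower in MDAMB231 than in COLO205, at -0.26 (adjusted p = 3.65e-07) against -0.06 as deposited.

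Ordered by group mean, HSF2 was highest in HCT116 at 3.5 h without heat shock, where ML-792 and DMSO overlapped, followed by HCT116 at 16 h, where they overlapped as well. Heat shocked HCT116 cells in DMSO came next, then MDAMB231 and heat shocked HCT116 cells in ML-792, which lay between 8.48 and 8.75 FPKM, and last COLO205. HSBP1 was highest in heat shocked HCT116, then HCT116 at 3.5 h without heat shock and at 16 h, then COLO205, then MDAMB231. Across the 10 group means of log2(FPKM + 1), the genes most like HSF2 included TMEM64 and ZNF215 (r = 0.994 each). The 3 nearest to HSBP1 were CDC40, XRCC6 and CCZ1 (r = 0.996 each). HSF4 was most like BBS1 (r = 0.987), YJEFN3 (r = 0.98) and PPDPF (r = 0.978), and HSF1 most like PKD1 (r = 0.937), GSDMD (r = 0.93) and POLL (r = 0.929). These correlations describe 10 group means whose libraries differ in GC tilt.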

How the data were processed

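Polyadenylated RNA of 30 libraries in 10 groups of 3 was analysed. The deposited values are FPKM per gene, in 1 table with 30373 names, of which 19687 matched RefSeq symbols. Libraries were made with a stranded kit per the labels' protocols. The submitters' processing notes name DESeq2 1.10.1, with no role. For the aligner, build, annotation and strand setting of the counting, nothing is stated in the labels or the file.

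Tests used limma 3.58.1 (trend, robust) in R 4.3.3 on log2(FPKM + 1), which understates changes of low genes, for genes that reached 1 FPKM in 3 or more libraries of a fit. Fitted together were the 18 libraries of 16 h (14251 genes), the 12 of 3.5 h (12191) and the 12 of HCT116 without heat shock (12462), with 1 mean per group and a threshold of 0.05. The scripts were tested on simulated data. GC content is that of the longest GENCODE transcript and was known for 94.3% of genes tested at 3.5 h.

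Named genes are the 4 members, up to 4 called genes in each direction from the target and regulator lists, expressed family relatives, neighbours and the 3 most similar genes, of which 1 is not reported here. The members and lists were chosen with earlier results of these data known. Alternatives changed the pseudocount, filter, scaling, libraries fitted, variance model and GC trend, or left out each library. The labels call the triplicates biological without saying how they were separated, so p-values measure the spread between these libraries, which may be technical.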

Additional observations from a re-analysis of the deposited data

Results flagged for a closer look

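Each gene here was singled out because the test of the difference between 2 effects, an interaction contrast in limma with Benjamini-Hochberg adjustment over all genes tested, called it. HSF1, HSF2, HSF4 and HSBP1 were called in none of these contrasts. Values are differences of log2 changes on the FPKM + 1 scale. The cause of these differences was not tested. For HSPA1A and HSPA1B the split of fragments between the near-identical genes is uncertain.

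Between the heat shock effects in ML-792 and in DMSO, ML-792 minus DMSO, the largest difference among the listed genes called was that of RGS2, a regulator of G protein signalling, at -1.47 (adjusted p = 2.15e-05). The HSP90 cochaperone PTGES3 was at -0.72 (adjusted p = 0.0295), the export receptor XPO1 at -0.70 (adjusted p = 0.0311), the HSP110 gene HSPH1 at -0.50 (adjusted p = 0.0299) and the HSF2 neighbour SERINC1 at -0.43 (adjusted p = 0.0269). HSPA6, the strictly inducible HSP70, was at 0.99 (adjusted p = 0.00967) and the kinase subunit PRKACA at 0.45 (adjusted p = 0.0212). HSPA6 passed the filter through heat shocked libraries only, so its value largely repeats the difference between the heat shocked groups. Calls in this contrast depended on the libraries: 302 genes were called higher as deposited, and 11 to 1080 with 1 library left out. The heat shocked ML-792 libraries also had the highest GC tilts of the 3.5 h libraries. Values of these genes under other settings are not given here.

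Between the ML-792 effects at 16 h and at 3.5 h in HCT116, 16 h minus 3.5 h, RGS2 was at 0.70 (adjusted p = 0.000298) and the kinase PLK1 at 0.23 (adjusted p = 0.0261). HSPA1B was at -0.49 (adjusted p = 0.0104), ZFAND2A at -0.37 (adjusted p = 0.024) and DNAJB1 at -0.31 (adjusted p = 0.0108).

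Between the ML-792 effects of COLO205 and HCT116, COLO205 minus HCT116, HSPA1B was at 0.83 (adjusted p = 0.000393), HSPA1A at 0.74 (adjusted p = 0.0406), the cochaperone BAG3 at 0.51 (adjusted p = 0.000499) and the kinase MAPK3 at 0.26 (adjusted p = 0.0147). HSP90AB1 was at -0.21 (adjusted p = 0.0205) and the kinase subunit CSNK2A1 at -0.18 (adjusted p = 0.0248).

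Between those of MDAMB231 and HCT116, MDAMB231 minus HCT116, BAG3 was at 0.42 (adjusted p = 0.00404) and HSPB8 at 0.33 (adjusted p = 0.011), while PLK1 was at -0.41 (adjusted p = 0.0028) and SERPINH1 at -0.32 (adjusted p = 0.035).

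Between those of MDAMB231 and COLO205, MDAMB231 minus COLO205, ZFAND2A was at 0.43 (adjusted p = 0.0329), HSPB8 at 0.24 (adjusted p = 0.0303), AHSA1 at 0.21 (adjusted p = 0.0335), MAPKAPK2 at 0.20 (adjusted p = 0.0303) and HSPA4 at 0.16 (adjusted p = 0.0446). HSPA1B was at -0.58 (adjusted p = 0.00479), PLK1 at -0.32 (adjusted p = 0.00701), DNAJB1 at -0.24 (adjusted p = 0.039), MAPK3 at -0.24 (adjusted p = 0.0148) and the cullin CUL3 at -0.21 (adjusted p = 0.0487).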

How the results depend on the processing

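The 4 genes in 15 comparisons gave 60 results, recomputed under 464 alternatives other than leaving out a library, of which 438 kept the call, and under 480 that left out 1 library, of which 457 did. Among those that kept the call are 44 that missed the threshold in both settings and changed sign, and among the others are 5 that reversed; the cause was not tested except where the setting has fewer libraries or genes. No paired analysis was possible because no label numbers the libraries of a group. Removal of the GC trend was chosen after seeing the data. HSF4 has no value with a filter at 5 FPKM. Depth is known only as an estimate, so no interval for counting error can be given, and HSF4 at 3.5 h rests on few fragments. FPKM fixes no scale between libraries of different RNA content, and the 3 scalings differ most after heat shock.

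Heat shock against none in ML-792 gave HSF1 0.12 after median-of-ratios scaling, -0.0563 at equal totals and -0.0139 with the GC trend removed, and HSBP1 0.0324, -0.14 and 0.13, with HSBP1 at 0.16 to 0.21 when 1 library was left out. In DMSO at equal totals HSF1 was -0.29, HSF4 0.28 and HSBP1 0.0385, and HSF4 was 0.32 to 0.49 with 1 library left out. ML-792 against DMSO after heat shock gave HSF1 0.27 (adjusted p = 0.103) and HSF2 -0.33 (adjusted p = 0.101) with only these groups fitted, and 0.0279 and -0.19 with the GC trend removed. HSBP1 was -0.20 there after median-of-ratios scaling and at equal totals. With 1 library left out, HSF1 was 0.21 to 0.34, HSF2 -0.42 to -0.20, HSF4 0.18 to 0.48, HSBP1 -0.20 to -0.0898, and the HSF1 interaction 0.22 to 0.36. At 16 h HSF4 in COLO205 was -0.25 with no filter (adjusted p = 0.0661) and -0.30 to -0.22 with 1 library left out, and -0.30 to -0.18 in HCT116. With the GC trend removed the HSF1 response was called different, by -0.18 for COLO205 minus HCT116 and by 0.12 for MDAMB231 minus COLO205.

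Between lines in DMSO, HSF1 in COLO205 against HCT116 was -0.10 after median-of-ratios scaling, 0.35 with the GC trend removed and -0.25 to -0.13 with 1 library left out. In MDAMB231 against HCT116 it was -0.12, -0.13 at equal totals and 0.0938 with the GC trend removed, and in MDAMB231 against COLO205 it was called at -0.26 with the GC trend removed. HSF4 was called at 0.51 for COLO205 against HCT116 with the GC trend removed, -0.16 for MDAMB231 against COLO205 at equal totals and -0.34 to -0.19 with 1 library left out, and -0.23 to -0.0728 for MDAMB231 against HCT116.

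Target gene counts moved as follows. In HCT116 at 16 h 2 were lower at equal totals and 2 with the GC trend removed, and with 1 library left out 3 to 7 were higher and 0 to 2 lower. In COLO205 3 to 7 were lower with 1 library left out. In MDAMB231 1 was lower with no filter, 4 with only these groups fitted and 1 to 2 with 1 library left out. At 3.5 h without heat shock 17 were higher with only these groups fitted. After heat shock, ML-792 against DMSO gave 1 higher and 1 lower with only these groups fitted, and 9 lower after median-of-ratios scaling, 8 at equal totals, 5 with the GC trend removed and 2 to 6 with 1 library left out. Heat shock in ML-792 gave 1 lower at equal totals and 0 to 1 with 1 library left out.

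Over all genes, HCT116 at 16 h had 1186 higher and 915 lower, 727 and 589 with only these groups fitted, and 687 to 1569 and 493 to 1253 with 1 library left out. ML-792 against DMSO at 3.5 h had 124 higher and 23 lower, 464 and 264 with only these groups fitted, 40 lower with the GC trend removed, and 72 to 79 and 11 to 16 with 1 library left out. After heat shock it had 2241 higher and 1842 lower, 1167 higher after median-of-ratios scaling, 1042 higher at equal totals, 88 and 167 with only these groups fitted and 634 and 1081 with the GC trend removed. Without replicate 2 it had 762 and 867 (in DMSO) or 1130 and 1187 (in ML-792). Heat shock in ML-792 had 4796 higher and 2721 lower, 2996 higher after median-of-ratios scaling and 1560 and 5867 at equal totals. In DMSO it had 3526 and 2507, and 1317 and 5710 at equal totals. The interaction of heat shock and ML-792 had 302 higher and 479 lower, 81 and 130 with no filter, 195 and 836 after median-of-ratios scaling, 34 and 192 at equal totals, 54 and 224 with the GC trend removed, and 11 to 1080 and 64 to 1440 with 1 library left out. The interaction of time and ML-792 had 140 higher and 159 lower, 313 and 370 with the GC trend removed, and 60 to 403 and 89 to 405 with 1 library left out. Of calls in the interaction of COLO205 and HCT116 with ML-792, 49.8% were higher as deposited and 60.5% at equal totals.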
